A study of Mus musculus with 8 samples.

Results

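The 10 genes described here form the calcineurin, NFAT and MEF2 arm of cardiac hypertrophy signalling, out of 55487 genes in the count files. They were chosen by symbol and not by a rule on measured values, although earlier results of these data were known. They comprise the calcineurin catalytic subunits Ppp3ca and Ppp3cb, the calcineurin regulator Rcan1 and the transcription factors Nfatc1 to Nfatc4. The others are the MEF2 factors Mef2a and Mef2c, and the class IIa histone deacetylase Hdac5. The series measured RNA by sequencing in left ventricles of C57BL/6 mice, all 12 weeks old. The 4 control animals are labelled wild-type and titled NLC, and the 4 KO animals are labelled GPR116-/- in myocytes only and titled CM-ADGRF5-KO, with 2 males and 2 females in each group. GPR116 is another name for ADGRF5, an adhesion G protein-coupled receptor that the series title links to Gαq. The sources used here do not give the promoter that drives the deletion, nor whether the controls carry a floxed allele or a Cre transgene.

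Calcineurin is a phosphatase made of a catalytic A subunit and a regulatory B subunit, and calcium-loaded calmodulin switches it on. It strips phosphates from NFATc proteins, which then enter the nucleus and, together with partners such as GATA4, turn on genes of the hypertrophic heart. MEF2 factors drive muscle genes and are held silent by class IIa histone deacetylases such as HDAC5 until calcium- and Gq-dependent kinases send the deacetylase out of the nucleus. RCAN1 binds and restrains calcineurin. A short form of it starts inside the gene, and that start is itself switched on by NFAT, so Rcan1 RNA is widely used as a readout of calcineurin in the heart. The other steps are set by phosphorylation and by place in the cell, which RNA levels do not measure.

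The sequence just upstream of the Rcan1 and Mef2c starts is shown first, because NFAT is known to act at the internal Rcan1 start. All sequences are from RefSeq on GRCm38.p6, read 5′ to 3′ on the strand of the gene. In each, 250 bases end at the base before an annotated start, and capitals mark the NFAT core motif GGAAA or its reverse complement TTTCC. RefSeq windows were used for 8 of the 10 genes. None was used for Ppp3ca or Nfatc1, so the sequence upstream of their starts was not assessed.
Rcan1, upstream start, chr16:92466170-92466419, minus strand: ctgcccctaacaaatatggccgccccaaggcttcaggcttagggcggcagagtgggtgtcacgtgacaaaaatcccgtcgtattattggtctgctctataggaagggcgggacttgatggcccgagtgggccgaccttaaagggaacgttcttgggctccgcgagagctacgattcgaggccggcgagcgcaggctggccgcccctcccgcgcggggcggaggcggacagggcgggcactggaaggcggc
Rcan1, internal start, chr16:92400079-92400328, minus strand: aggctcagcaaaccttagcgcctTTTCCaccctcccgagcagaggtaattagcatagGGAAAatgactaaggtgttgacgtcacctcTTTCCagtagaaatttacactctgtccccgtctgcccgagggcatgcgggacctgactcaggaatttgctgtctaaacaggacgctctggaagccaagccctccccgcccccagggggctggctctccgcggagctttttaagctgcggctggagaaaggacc
Mef2c, most upstream start, chr13:83503784-83504033, plus strand: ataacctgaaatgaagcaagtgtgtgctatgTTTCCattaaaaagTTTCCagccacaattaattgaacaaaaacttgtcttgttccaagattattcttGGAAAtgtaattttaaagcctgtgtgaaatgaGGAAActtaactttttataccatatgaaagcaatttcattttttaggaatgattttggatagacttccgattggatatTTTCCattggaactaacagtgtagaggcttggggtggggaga

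The upstream Rcan1 window held 0 core matches and the internal window, 66.1 kb further along the gene, held 3. Of 32851 such windows in the RefSeq table, 6.39% held 3 or more matches and 55.6% held at least 1. The most upstream Mef2c window held 5, a number that 0.39% of all windows reached or passed, whereas its other 2 windows held 0. Windows of Ppp3cb, Nfatc4 and the upstream Nfatc2 start also held 3 matches. A 10-base MEF2 consensus occurred in 1 of the 13 windows used for the 8 genes, that of Hdac5, and in 2.92% of all windows. The Hdac5 match is in capitals in the 35 bases before its start at chr11:102230173-102230207 on the minus strand.
Hdac5: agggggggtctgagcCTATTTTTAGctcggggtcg
These matches describe letters and not bound sites. The counts are summed over each gene, so transcripts from the separate Rcan1 or Mef2c starts were not told apart.

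The libraries held 25328800 to 39615400 reads on genes. Levels are given in CPM, read counts relative to library size after scaling by the trimmed mean of M values (TMM), and 3 counts, the limit for a gene with no reads, correspond to 0.0793 to 0.122 CPM. The targeted gene Adgrf5 stood at 218.2 to 257.0 CPM in controls and 203.0 to 239.8 CPM in KO (edgeR log2 fold change -0.05, SE 0.0754, adjusted p = 0.782). Endothelial cells also express it, so whole ventricle does not check the labels. All 6 cardiomyocyte markers were detected, with summed levels of 47072.5 to 57993 CPM in controls and 50672.4 to 61575.2 CPM in KO. The summed atrial markers, Nppa among them, stood apart in control replicate 4, at 5998 CPM against 359 to 1435 CPM in the other 7 libraries. Of these markers Myl7 stood at 983 CPM in control replicate 4, 157 in control replicate 2 and 183 in KO replicate 3. The remaining libraries held 0.264 to 40.7 CPM of Myl7, so its level also varied widely without control replicate 4. By the library numbers in the description labels, both male KO samples precede both male controls, while the female ones interleave. Number order and genotype therefore cannot be told apart in males. All males also precede all females, so number order and sex cannot be told apart either.

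All 10 genes were expressed in the ventricle and all passed the filter on low counts. Per kilobase of annotated exon, Rcan1 was the most abundant of them at 25.9 ± 2.89 CPM per kb (SD, n = 8), followed by Hdac5 at 15.8 ± 1.89 and Mef2a at 9.37 ± 1.19. No library value of Rcan1 overlapped those of Hdac5, and none of Hdac5 overlapped those of Mef2a. The calcineurin genes came next, Ppp3cb at 6.35 ± 0.783 and Ppp3ca at 4.30 ± 0.640 CPM per kb, with values that overlapped each other. Below them lay Mef2c at 2.72 ± 0.363, Nfatc1 at 2.67 ± 0.197, Nfatc3 at 2.11 ± 0.238, Nfatc2 at 1.78 ± 0.252 and Nfatc4 at 1.45 ± 0.189 CPM per kb. Each of these last 5 overlapped its neighbour in the order. Exon length here is the union over all annotated transcripts, which understates genes whose long forms are not used in heart.

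KO and control ventricles were then compared for each gene. None of the 10 passed at an adjusted p of 0.05 over all 14695 genes tested by edgeR, against 0.102% of all genes. DESeq2 and limma voom also called 0 of the 10, against 1.01% and 0.0885% of all genes. At an unadjusted edgeR p under 0.05, 2 of 10 were lower, namely Ppp3ca and Mef2c, and 0 were higher, beside 6.18% and 5.77% of all genes (11.9% in either direction). The log2 fold change was negative in 8 of 10 genes, against 51% of all genes, and its median was -0.16 against -0.01 over all genes tested. Of these genes 9 span over 30 kb, and 63.4% of all genes that span 30 to 100 kb and 75.2% of those that span 100 to 300 kb had a negative fold change. In whole tissue, fewer cells of a type and less RNA per cell cannot be told apart.

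**Figure D1:**
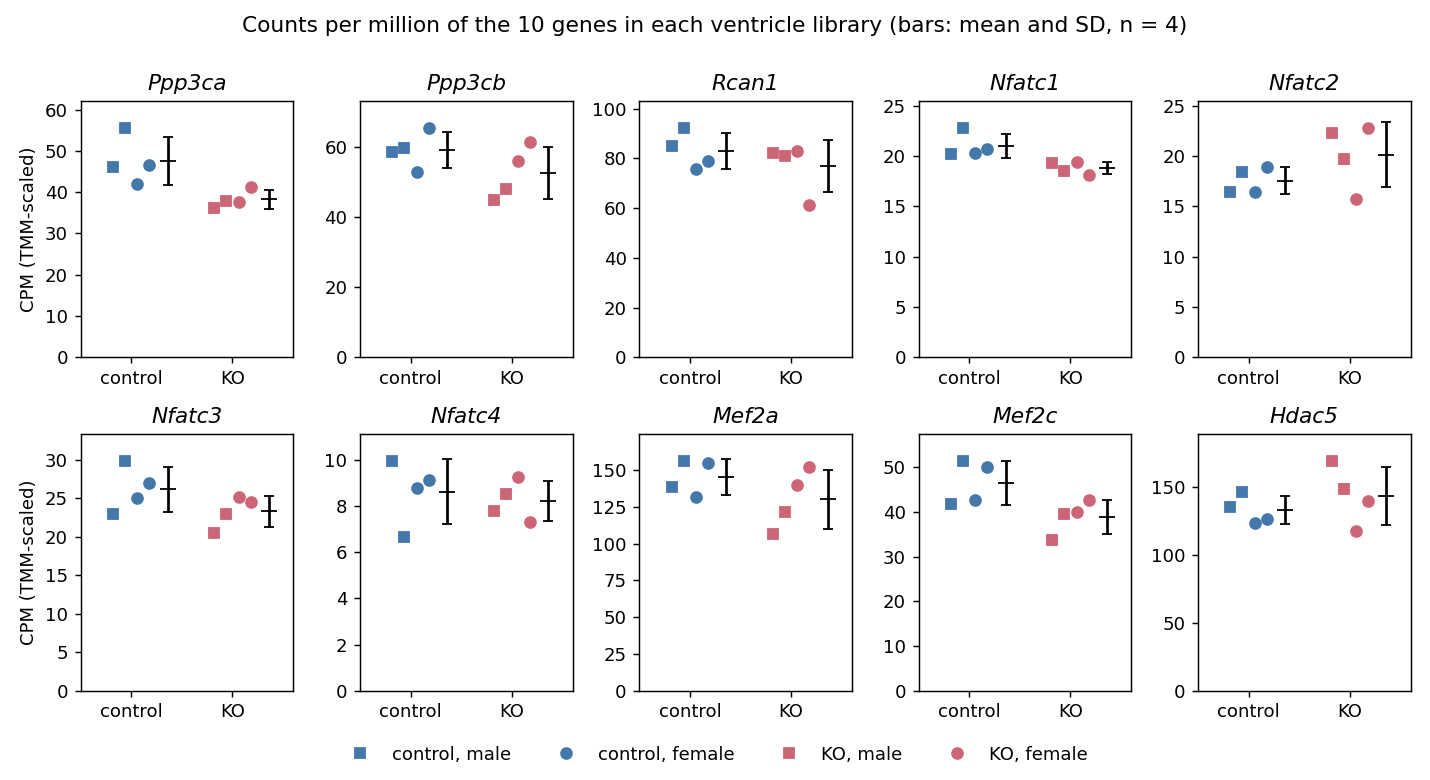
Level of each of the 10 genes in each library, in TMM-scaled CPM on axes that start at 0. Squares are males, circles females, and the black bars give mean and SD of 4 libraries. The KO points lie wholly below the controls for Ppp3ca and Nfatc1 and overlap them for the other 8 genes.

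Ppp3ca, the calcineurin Aα subunit, showed the lowest p of the 10. Control replicates 1 to 4 measured 46.1, 55.6, 42.0 and 46.6 CPM, and KO replicates 1 to 4 measured 36.1, 37.9, 37.7 and 41.4 CPM. Every KO library lay below every control. The log2 fold change was -0.31 (SE 0.0914), or -19.4% with a 95% interval of -30.0% to -7.23%, and the edgeR adjusted p was 0.282. The exact two-sided permutation test gave p = 0.0286, which is the smallest value 4 against 4 libraries can give. Any gene whose groups do not overlap gets this value. Ppp3ca passed in 1 of 20 alternative settings, that with no filter on low counts (adjusted p = 0.0398), which called 2.22% of all genes, and the adjusted p ranged up to 0.629 in the others. The gene (ENSMUSG00000028161) spans 136670124 to 136937727 on chromosome 3 of GRCm38.

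Ppp3cb, the Aβ subunit, which in mice is required for a full hypertrophic response, ran from 52.9 to 65.5 CPM in controls and from 45.0 to 61.5 CPM in KO. The groups overlapped (edgeR log2 fold change -0.18, SE 0.0936, adjusted p = 0.456). The third catalytic gene, Ppp3cc, is best known from testis. It was nonetheless present in ventricle at 27.3 to 30.3 CPM, with a log2 fold change of 0.07 (SE 0.0669). The regulatory subunit gene Ppp3r1 stood at -0.09 (SE 0.0830). Its testis relative Ppp3r2 had 2 reads in all 8 libraries.

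Rcan1, the feedback inhibitor, measured 84.9, 92.2, 75.7 and 78.9 CPM in control replicates 1 to 4, and the KO replicates in the same order gave 82.3, 81.1, 83.0 and 61.3 CPM. Of the KO libraries 3 lay within the control range and replicate 4 lay below it. In edgeR the log2 fold change was -0.11 (SE 0.0886, adjusted p = 0.613), and -0.03 without KO replicate 4 or -0.20 without KO replicate 3. Its 95% interval ran from -19.0% to 6.40%. Increases of total Rcan1 RNA beyond that upper bound lie outside the interval. Its relative Rcan2 was more abundant, at 101 ± 10.7 CPM per kb (SD, n = 8), with a log2 fold change of -0.04 (SE 0.107).

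The 4 calcium-dependent NFAT genes lay close together in level and none passed. Nfatc1, known for valve formation and lymphocyte activation, measured 20.2, 22.8, 20.3 and 20.7 CPM in control replicates 1 to 4, beside 19.3, 18.5, 19.4 and 18.1 CPM in the KO replicates. As for Ppp3ca, no KO library reached the lowest control. Nfatc1 had a log2 fold change of -0.16 in edgeR (SE 0.0730, adjusted p = 0.423), and the exact permutation p was 0.0286. Such a gap between groups was found in 2 of these 10 genes and in 6.25% of all genes tested.

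Nfatc1 is also expressed in endothelium. The 7 endothelial markers summed to 807 to 961 CPM in controls and 733 to 807 CPM in KO, ranges that meet at their ends. Their median log2 fold change was -0.29 and 0 of 7 were called. All were negative, from -0.04 for Tie1 to -0.55 for Npr3. In Pecam1, Emcn and Vwf every KO library lay below every control, a gap seen in 6.25% of all genes in either direction. None of the 7 was at 0, and their part in the Nfatc1 value was not tested. Nfatc2, which is prominent in lymphocytes, was the only NFAT gene with a positive fold change, at 0.19 (SE 0.119, edgeR adjusted p = 0.505). It ran from 16.4 to 18.95 CPM in controls and from 15.7 to 22.8 CPM in KO. The 5 lymphocyte markers, 2 of which passed the filter, summed to 1.55 to 3.37 CPM in controls and 1.30 to 2.59 CPM in KO.

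Nfatc3, which mediates calcineurin-driven growth of cardiomyocytes, ran from 23.0 to 29.8 CPM in controls and from 20.5 to 25.1 CPM in KO (edgeR log2 fold change -0.17, SE 0.0971, adjusted p = 0.479). Nfatc4, first described as a GATA4 partner in the heart, ran from 6.65 to 9.93 CPM and from 7.29 to 9.27 CPM (edgeR log2 fold change -0.07, SE 0.136, adjusted p = 0.840). All Nfatc4 values in KO lay within the control range. Its fold change was 0.041 without control replicate 1 and 0.0028 without KO replicate 4.

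Mef2c, the factor needed for heart looping in the embryo, measured 41.9, 51.3, 42.7 and 50.04 CPM in control replicates 1 to 4, where the KO replicates had 33.6, 39.5, 40.1 and 42.7 CPM. Only KO replicate 4 reached into the control range. The log2 fold change was -0.26 (SE 0.0954), or -16.3% with a 95% interval of -27.7% to -3.06%. Over all genes the edgeR adjusted p was 0.350, and the exact permutation p was 0.0857. Without control replicate 4, the library with the highest atrial markers, the fold change was -0.23 for Mef2c and -0.31 for Ppp3ca. Mef2c (ENSMUSG00000005583) spans 83504034 to 83667080 on chromosome 13.

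Mef2a, which mice need for normal heart mitochondria and survival after birth, measured 138, 156, 132 and 155 CPM in control replicates 1 to 4. The KO replicates measured 106, 121, 140 and 152 CPM. The 2 low values were those of the KO males, and the KO females lay within the control range. For Mef2a edgeR gave a log2 fold change of -0.17 (SE 0.102, adjusted p = 0.499). Mef2d, which carries stress signals in the adult mouse heart, stood at 0.11 (SE 0.0617, edgeR adjusted p = 0.485). A total of 60 reads fell on Mef2b over the 8 libraries.

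Hdac5, which blocks MEF2, was with Nfatc2 one of the genes with a positive fold change. It measured 135, 146, 124 and 126 CPM in control replicates 1 to 4 and, in the KO replicates, 169, 149, 117 and 140 CPM. The KO libraries held both the highest and the lowest value (edgeR log2 fold change 0.11, SE 0.0794, adjusted p = 0.578).

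The make-up of each gene family does not depend on how libraries are scaled. Among reads per kilobase on the calcineurin A genes, Ppp3ca took 22.7% ± 1.68 in controls and 19.4% ± 0.568 in KO (SD, n = 4 each), with ranges of 21.5% to 25.1% and 18.6% to 19.98%. The groups did not overlap. Mef2c took 6.57% ± 0.519 of MEF2 reads per kilobase in controls and 5.39% ± 0.411 in KO, again with no overlap (5.87% to 6.98% and 4.87% to 5.76%). These shares are descriptions without a test, and how often shares in other gene families separate in this way was not counted.

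The shares of the other 8 genes overlapped between the groups. Mef2d held most MEF2 reads per kilobase, at 71.1% ± 1.62 in controls and 74.9% ± 3.03 in KO. Of the calcineurin A sum, Ppp3cc held the largest part, at 45.3% ± 1.75 in controls and 50.4% ± 2.03 in KO, with overlap. That place rests on the division by exon length, 2.985 kb for Ppp3cc against 9.981 for Ppp3ca and 8.809 for Ppp3cb. In CPM without it Ppp3cc was the lowest, averaging 29.0 beside 42.9 for Ppp3ca and 55.9 for Ppp3cb. Nfatc1 made up 34.3% ± 1.27 and 32.2% ± 1.23 of the NFATc sum, and Nfatc2 20.3% ± 0.799 and 24.3% ± 3.84. Hdac5 held 53.1% ± 4.05 and 54.3% ± 1.65 of the class IIa deacetylase sum. Rcan1 held 20.4% ± 0.988 and 19.7% ± 3.23 of the Rcan sum, most of the rest being Rcan2.

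**Figure D2:**
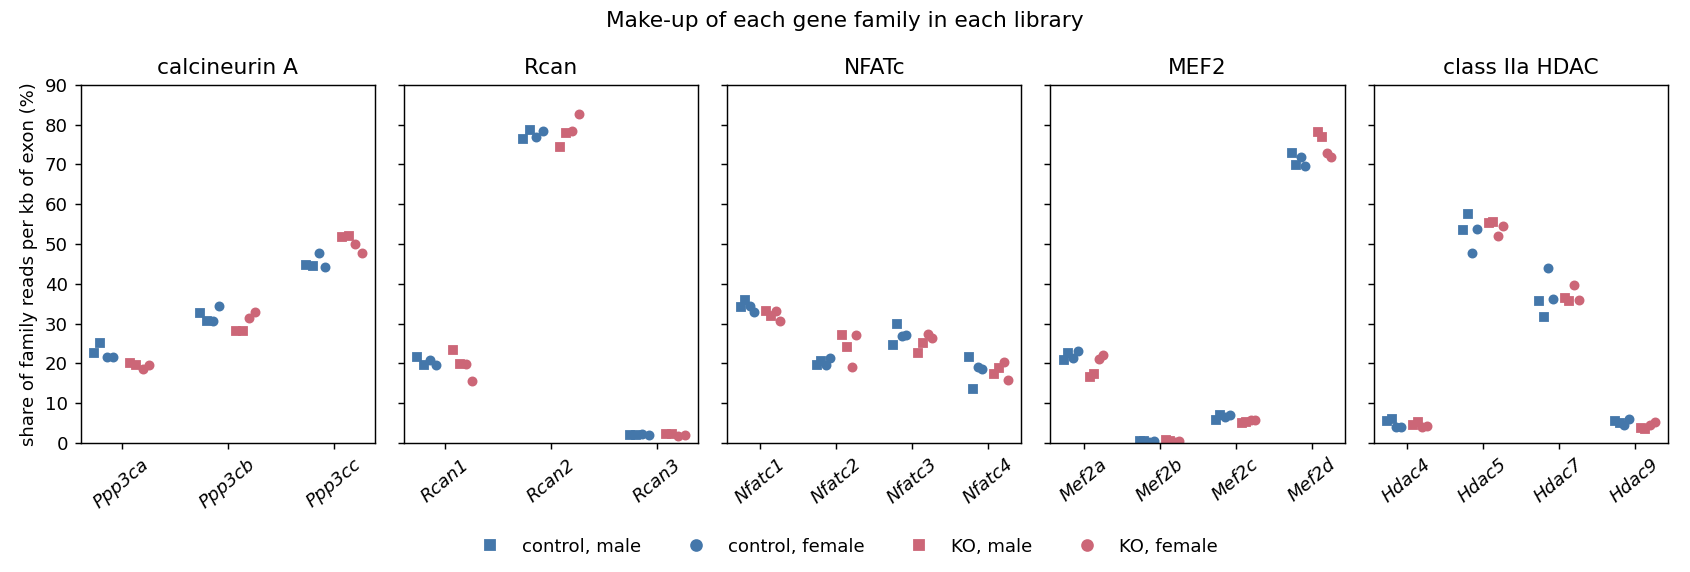
Share of each gene in its family, in percent of the family's reads per kilobase of exon, for each of the 8 libraries. Blue points are controls and red points KO, squares males and circles females. Ppp3ca and Mef2c are the 2 of the 10 genes whose KO points all lie below the controls, Mef2c by a margin that is small on this axis. How often this happens in other families was not counted.

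The sexes were compared next, with 2 libraries for each sex and genotype. Within males 0 of the 10 genes passed by edgeR (0.0408% of all genes), while 4 had an unadjusted p under 0.05 (17.5% of all genes). These were Ppp3ca at -0.46 (SE 0.114), Ppp3cb at -0.35 (SE 0.112), Mef2a at -0.37 (SE 0.117) and Mef2c at -0.35 (SE 0.133), with adjusted p-values of 0.169, 0.199, 0.199 and 0.241. DESeq2 called 1 of the 10 in males, Ppp3ca (adjusted p = 0.0461), and 2.12% of all genes. In 7 of the 10 genes, all but Nfatc2, Nfatc4 and Hdac5, both male KO libraries lay below both male controls, as in 25.9% of all genes, and in Nfatc2 and Hdac5 both lay above, as in 25.1%.

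Within females 0 of the 10 genes passed by edgeR (0% of all genes) or by DESeq2 (0.116%), and 0 had an unadjusted p under 0.05 (5.12% of all genes). Ppp3ca stood at -0.16 (SE 0.115), Ppp3cb at -0.01 (SE 0.112), Mef2a at 0.03 (SE 0.117) and Mef2c at -0.16 (SE 0.132). In females Ppp3ca and Nfatc1 had both KO libraries below both controls, as in 17.2% of all genes, and 0 of the 10 had both above, as in 17.1%. A direct test of the male against the female fold change passed for 0 of the 10 by edgeR or DESeq2 (0% and 0.102% of all genes). Only Mef2a had an unadjusted p under 0.05, where 7.46% of all genes did. Its male fold change was lower than its female one by a log2 difference of -0.40 (SE 0.166, adjusted p = 0.648).

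**Figure D3:**
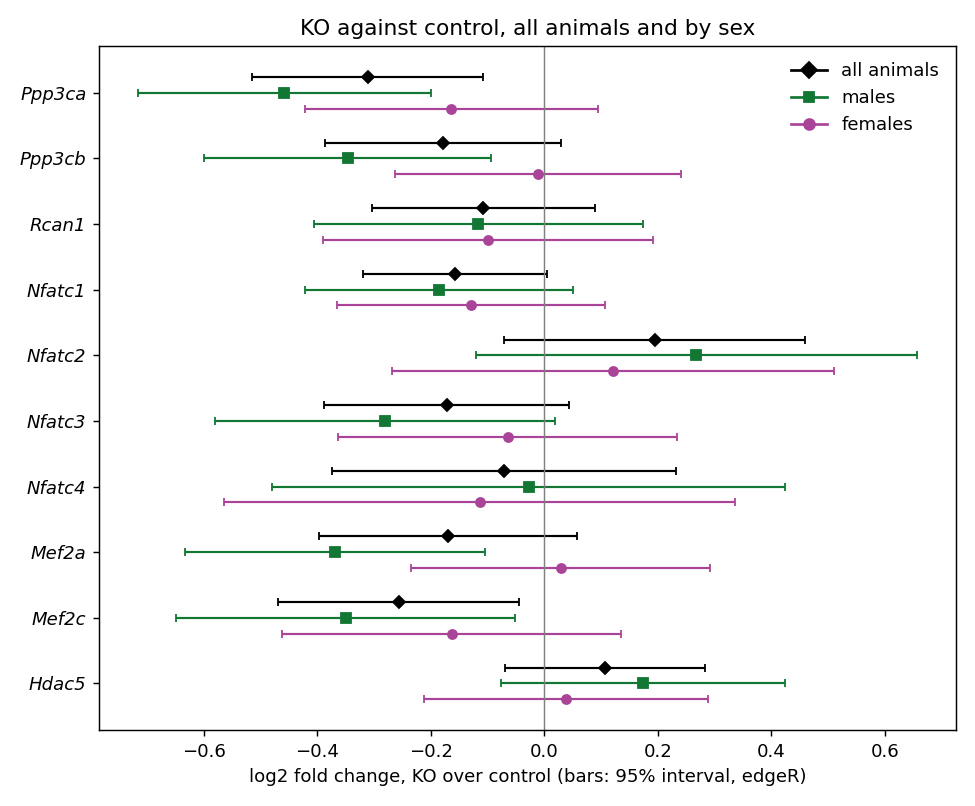
Log2 fold change of KO over control for each of the 10 genes, with its 95% interval from edgeR, for all 8 animals (diamonds), males (squares) and females (circles). The interval over all animals lies below 0 for Ppp3ca and Mef2c, before any adjustment for the number of genes tested.

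Between males and females of both genotypes, 0 of the 10 genes passed by edgeR or DESeq2 (0.299% and 1.58% of all genes), and 1, Hdac5, had an unadjusted p under 0.05 (12.8% of all genes). Hdac5 ran from 135 to 169 CPM in males and from 117 to 140 CPM in females, a log2 difference of 0.24 (SE 0.0794, adjusted p = 0.265). Rcan1 followed at 0.19 (SE 0.0887, adjusted p = 0.407), with 81.1 to 92.2 CPM in males and 61.3 to 83.0 CPM in females. Both genes overlapped between the sexes. In this comparison sex and library number order cannot be told apart.

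The fold changes were also set beside genomic span, since the median over all genes tested was lower in longer genes. Genes that span under 10 kb had a median log2 fold change of 0.09, those of 30 to 100 kb -0.05, and those of 100 to 300 kb -0.10. Ppp3ca spans 267.6 kb and lay at the 11.4th percentile of its span class, and Mef2c spans 163.0 kb and lay at the 16.98th. Nfatc1 (106.9 kb) and Mef2a (141.7 kb) lay at the 35.99th and 32.5th percentiles of the same class. Nfatc2, at 125.2 kb, lay at the 94.4th. The part of span in these values was not tested. Exons of Nfatc3 and Mef2a overlap genes on the other strand, by 1.87% and 2.06% of their exon bases, and 1.26% of those of Hdac5 lie in a microRNA gene on its own strand.

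**Figure D4:**
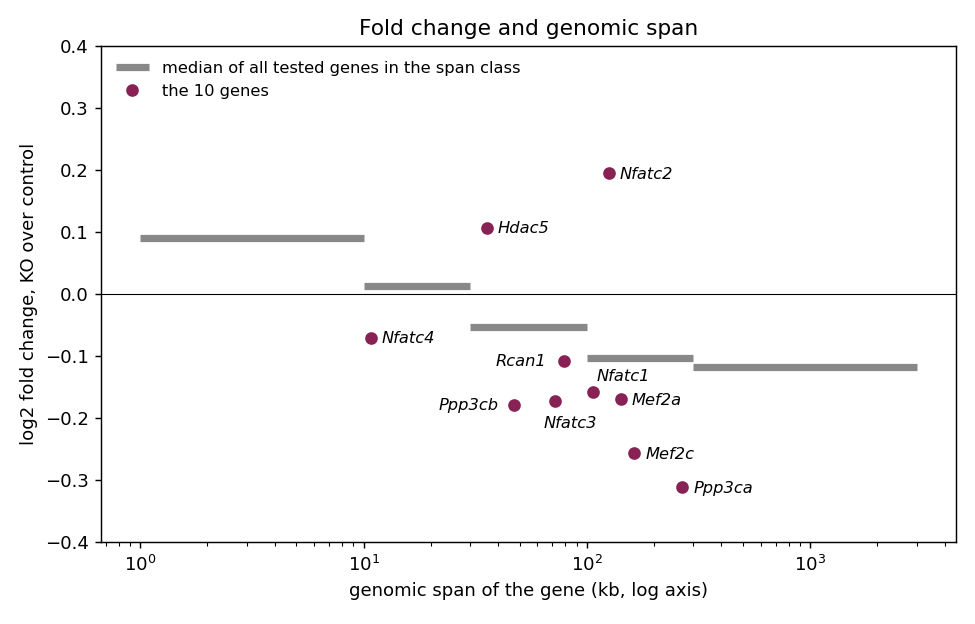
Log2 fold change of KO over control against genomic span on a log axis. Points are the 10 genes, and grey bars are the medians of all tested genes in 5 span classes, of which the first and last are open-ended. Of the 10 genes, 8 lie below the bar of their class and Nfatc2 and Hdac5 lie above.

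Of the 75 other genes listed for this pathway, 69 were tested, and 0 passed in either direction by edgeR. At an unadjusted p under 0.05, 7 were higher (5.77% of all genes) and 6 were lower (6.18%), and the median log2 fold change was -0.03. In 5 of the 69 the groups did not overlap, where 6.25% of all genes did not. Among calcineurin partners, 3 of 13 tested were higher at that level and 0 lower. Cib1, which anchors calcineurin to the cardiomyocyte membrane, averaged 9.69 ± 1.02 CPM in controls (SD, n = 4) and 12.8 ± 1.74 in KO, a log2 fold change of 0.40 (SE 0.0929, edgeR adjusted p = 0.197). Cabin1, a calcineurin inhibitor that also binds MEF2, stood at 0.17 (SE 0.0727) and Myoz2, the Z-disc calcineurin inhibitor calsarcin-1, at 0.15 (SE 0.0635). Myoz2 ran from 828 to 880 CPM in controls and from 915 to 980 CPM in KO without overlap.

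The list of kinases that send NFAT back to the cytoplasm also holds the calcium-independent factor gene Nfat5. This list had a median of -0.12 over 9 genes, with 0 higher and 1 lower at an unadjusted p under 0.05. Over all genes 5.77% were higher and 6.18% lower at that level. The lower gene was Gsk3b at -0.25 (SE 0.111), while Mapk8, the kinase JNK1, stood at -0.16 (SE 0.0845) and Dyrk1a at -0.15 (SE 0.0844). Of 5 calcium entry genes 1 was lower at that level, the store sensor Stim2 at -0.21 (SE 0.0807). The store-operated channel Orai1 stood at 0.19 (SE 0.101). Their edgeR adjusted p-values ran from 0.361 to 0.483 over these 5 genes.

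Other MEF2 genes, class IIa deacetylases and cofactors had 0 of 11 either way at an unadjusted p under 0.05. Hdac9 stood at -0.24 (SE 0.119) and the acetyltransferase Ep300 at -0.13 (SE 0.0737). Among kinases that phosphorylate class IIa deacetylases or MEF2, 1 of 14 was higher at that level and 3 were lower. Over all genes these shares were 5.77% and 6.18%. Camk1 stood at 0.20 (SE 0.0745), the salt-inducible kinase Sik2 at -0.38 (SE 0.104) and the protein kinase D gene Prkd3 at -0.24 (SE 0.0798), with edgeR adjusted p-values of 0.350, 0.254 and 0.344. The third lower kinase was Camk1d at -0.72 (SE 0.303, edgeR adjusted p = 0.394), and at -0.31 without control replicate 4, which held 11.2 CPM against 3.45 to 6.32 CPM in the other controls.

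Of the known target genes 0 passed in edgeR. Of 10 MEF2 targets in striated muscle 1 was higher and 1 lower at an unadjusted p under 0.05. Their median was 0.02, and 5.77% and 6.18% of all genes were higher and lower at that level. The intermediate filament gene Des stood at 0.22 (SE 0.0682), and the intercalated disc gene Xirp2 at -0.22 (SE 0.0949). Pgam2, a muscle glycolytic enzyme, stood at 0.20 (SE 0.0941). Of 7 NFAT targets and hypertrophy markers 2 were higher at that level and 0 lower. Myh7, the β-myosin heavy chain of the fetal heart, stood at 0.64 (SE 0.176) and Adssl1, an enzyme of AMP synthesis, at 0.31 (SE 0.0748). Their adjusted p-values were 0.246 and 0.208 in edgeR, while both passed in DESeq2, at 0.0147 and 0.0190. DESeq2 called 1.01% of all genes where edgeR called 0.102%. Nppb, which encodes brain natriuretic peptide, stood at 0.43 (SE 0.315). Its 4 controls averaged 122 ± 71.6 CPM (SD) beside 150 ± 44.9 in KO. Nppa went the other way at -0.29 (SE 0.756), with 3778 CPM in control replicate 4 and 283 to 446 CPM in the other controls. KO replicates 1 to 4 measured 864, 614, 1034 and 336 CPM of Nppa. Within males Nppa stood at 1.02 (SE 0.831) and Nppb at 1.09 (SE 0.347). Within females they stood at -1.60 (SE 0.842) and -0.22 (SE 0.341). For both, the edgeR adjusted p of the difference between the sexes was 0.648. Of the 7 genes 5 had a positive fold change and 2 a negative one.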

How the data were processed

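Left ventricular RNA of 8 mice was sequenced as stranded mRNA libraries. The deposited values are raw read counts per Ensembl gene, 1 file per library, with 5 summary entries that name no gene. The submitters' processing notes name STAR, HTSeq and DESeq2, and the build GRCm38. Their versions, the gene annotation and whether counting used strand were not given in the sources used here, so overlapping genes on opposite strands may share reads. Summary entries were left out of library sizes and tests, and held 16.8% to 20.3% of all tallied reads as reads mapped to several places, 3.07% to 4.08% as reads with no gene and 1.26% to 1.38% as ambiguous ones.

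Symbols, places and exon lengths came from GENCODE M21 on GRCm38 and named 55227 of 55487 identifiers. Counts were tested in R 4.3.3 with edgeR 4.0.16 (filterByExpr by genotype, 14695 genes, TMM, glmQLFit and glmQLFTest, sex as an additive term). Sex contrasts came from a fit with 4 means, 1 for each sex of each genotype. All p-values were adjusted over all genes tested by the Benjamini-Hochberg method at 0.05. SE is the log2 fold change over the root of the F statistic, and 95% intervals use the matching t distribution. The exact test permuted log2 CPM (prior count 2) over 70 assignments.

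The fit of KO against control was also run on simulated counts with known changes and no sex effect. Its outcome is not reported here, and it did not cover the sex contrasts. Libraries of a group had a chi-square of 14.2 to 38.5 per degree of freedom for each pair, so none was a duplicate. The design text calls the libraries biological replicates. Named genes were the 10 members, Adgrf5 and, of 7 pathway lists, any called gene and the 3 with the smallest p at 1 CPM or more. One gene named by this rule is not reported here. Ppp3cc, Ppp3r1, Ppp3r2, Rcan2, Mef2b, Camk1d, Nppa, Hdac4 and Camk2b were named for their role after their values were seen. Members and lists were chosen with earlier results of these data known. Alternatives used DESeq2 1.42.0, limma voom 3.58.1, other scalings, filters and designs, and each library left out in turn. Counting floors (3 counts) cover counting error only.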

Additional observations from a re-analysis of the deposited data

Results flagged for a closer look

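In 64 groups of 4 libraries, formed from the named genes in control and in KO, 2 held a library far from the other 3 by Dixon's criterion at 95%. Chance flags about 1 in 20 such groups. Rcan1 in KO replicate 4 stood at 61.3 CPM, where the other 3 KO libraries lay between 81.1 and 83.0 CPM. Pgam2 in KO replicate 1 stood at 771 CPM, where the other KO libraries lay between 578 and 600.2 CPM.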

How the results depend on the processing

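Of the 10 members, 0 passed in KO against control in 19 of 20 alternatives, and 1 passed with no low count filter. Every member but Nfatc4 kept its direction in all 20. Over the 8 fits that left out a library, Nfatc4 ran from -0.19 to 0.041 on the log2 scale. Single libraries moved other small values by over 1.5 times. Ppp3cb stood at -0.27 without control replicate 3, and Nfatc3 at -0.074 without control replicate 2. Mef2a stood at -0.099 without control replicate 2, -0.26 without control replicate 3 and -0.092 without KO replicate 1. Nfatc2 stood at 0.31 without KO replicate 3 and 0.097 without KO replicate 4. Hdac5 stood at 0.069 without control replicate 1 or KO replicate 4, 0.054 without KO replicate 1 and 0.17 without KO replicate 3. The count of all called genes, 15, moved to 30 at an adjusted p threshold of 0.1, 28 with the atrial marker level as a covariate, 148 with DESeq2, 621 with no low count filter, 6 with no sex term, 0 with the replicate block and 44 without control replicates 3 and 4. The atrial covariate and the fit without both control replicates were chosen after seeing the data. Under them Ppp3ca stood at -0.27 and -0.46, Ppp3cb at -0.11 and -0.35 and Mef2a at -0.10 and -0.37. The latter fit gave -0.28 for Nfatc3, -0.03 for Nfatc4 and 0.17 for Hdac5. The fit with no filter tested 27953 genes in place of 14695. Control replicates 3 and 4 are the female controls, so the fit without both took its KO effect from the males alone. The cause of the other shifts was not tested. Leaving out 1 library gave 0 to 50 called genes in KO against control (0 when control 1 or 2 or KO 2 or 3 was left out, 4 when KO 1 or 4 was, and 50 when control 3 was), 0 to 59 in males, 0 to 81 in females, 0 to 8 for the difference between the sexes and 16 to 176 for males against females. With 1 library left in a sex and genotype, that library is assumed to vary like the others.

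With DESeq2 the counts were 312 in males, 17 in females, 15 for the difference and 232 for males against females. With no low count filter they were 1007, 277, 243 and 742. Of the members, DESeq2 called 1 in males and the fit with no filter called 2, Ppp3ca and Mef2a. Adssl1 passed with DESeq2 (0.0190) and with no filter (0.0184), Myh7 with DESeq2 (0.0147) and with no filter (9.5e-11), and Cib1, Nppb and Camk1d with no filter (0.0334, 0.000169 and 0.000778). The Mef2c share of MEF2 reads differed by -1.74 percentage points without length division and by -1.18 with it.

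Small sex-specific values turned sign when single libraries were left out. Within females Hdac5 ran from -0.091 to 0.16, Mef2a from -0.085 to 0.15, Nfatc2 from -0.17 to 0.37, Nfatc4 from -0.30 to 0.048, Ppp3cb from -0.16 to 0.15 and Rcan1 from -0.33 to 0.10. Within males Nfatc4 ran from -0.29 to 0.29. The male minus female difference ran from -0.14 to 0.029 for Nfatc1, -0.10 to 0.44 for Nfatc2, -0.18 to 0.41 for Nfatc4 and -0.22 to 0.22 for Rcan1. Males over females ran from -0.0053 to 0.065 for Nfatc1, -0.061 to 0.15 for Nfatc2, -0.18 to 0.042 for Nfatc4 and -0.036 to 0.11 for Ppp3ca.

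The labels do not say that a replicate number marks a shared litter or day. Deviations from the group means correlated between same-numbered libraries at 0.25, 0.09, -0.21 and 0.09, and 2 of 4 control libraries correlated best with their own number, so the numbers were not taken as pairs. The replicate block called 0 genes and 0 members, with Ppp3ca at -0.31 (adjusted p = 0.335). Nfatc4 had the fewest reads of the 10 genes, 1952 over 8 libraries, and the widest interval, -0.37 to 0.23.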

Other observations

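The class IIa deacetylase gene Hdac4, a MEF2 repressor like Hdac5, differed between the sexes and not between the genotypes. It measured 24.6, 27.0, 24.8 and 25.5 CPM in the 4 male libraries and 18.4, 17.4, 16.2 and 19.4 CPM in the 4 females, with no overlap. The log2 difference of males over females was 0.51 (SE 0.0797, edgeR adjusted p = 0.0296), and the KO effect was -0.02 (SE 0.0796). Of the 69 tested genes of the 7 pathway lists it was the only gene called between the sexes by edgeR, beside 0.299% of all genes. How many genes show no overlap between the sexes was not counted. Hdac4 was picked out after its values were seen. The call was lost in the 6 fits that left out control replicate 1, 2 or 4, or else KO 1, 2 or 3 (adjusted p 0.0849 to 0.141) and was kept with DESeq2 (5.8e-05). Camk2b, a gene for the kinase CaMKII, which phosphorylates HDAC4, ran from 20.7 to 23.1 CPM in males and from 11.4 to 17.6 CPM in females. Its log2 difference was 0.66 (SE 0.120), with an adjusted p of 0.0707 by edgeR and 0.000184 by DESeq2. For Hdac4 and Camk2b alike, sex and library number order cannot be told apart.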
